A study of Harpegnathos saltator with 37 samples.

Results

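In the central brain of the ant Harpegnathos saltator, 38 of 14001 genes passed a rule for a rise with adult age in both castes. It asked for a higher mean level at day 120 than at day 10, with day 20 in between. They were chosen from the measured values. The mean FPKM (reads per gene scaled to its length and to the library's depth) at day 120 had to be at least 1.7 times that at day 10 in the gamergate line and in workers, and at least 3 in both. The day 20 mean of each caste had to lie between its day 10 and day 120 means, and LOC105181726 and LOC112589664 were left out by name. Of 7453 genes with both day 120 means at 3 or more, 134 passed both ratios and 39 of these also passed at day 20. Among the 39 was 1 of the genes left out by name. All 38 passed the filter on low values used for the tests. All age ratios below are descriptions of how the genes were chosen and carry no test.

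Harpegnathos workers that win dominance duels in a nest without a reproductive become gamergates, which mate, lay eggs and outlive other workers. The 37 libraries came from 4 late pupae, 5 duelers (per the labels, dueling gamergates) and 4 workers at day 10, 5 gamergates and 4 workers at day 20, and 6 dominant gamergates and 9 hunting workers at day 120. Days count from the transfer of callow females of 5 days to new nests with 3 males and no queen or gamergate, and all adults shared that treatment. The labels give no other treatment and no genotype. Day 120 gamergates were recognised by mature oocytes. Day 120 workers were scored as hunters, which is not stated of younger workers, and day 10 animals of the gamergate line were those seen dueling, so age and behaviour cannot be told apart. The tissue was the central brain without optic lobes, gnathal ganglion and most of the antennal lobes, and in such bulk tissue fewer cells of a type and less RNA per cell cannot be told apart.

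Age and sequencing run could not be separated, because both day 10 groups were in run 2, both day 20 groups in run 5, and pupae in run 3. At day 120, run 1 held 1 gamergate and 4 hunting workers, and run 4 held 5 of each. Depth, as reads recovered from the values, was 9186510 to 55715313 reads per library. All 13 neuron markers and all 8 glial markers found under a symbol were detected, and their sums were lower at day 120 than at day 10 without overlap. Neuron markers summed to 867 to 929 FPKM in gamergates and 819 to 1002 FPKM in hunting workers at day 120, against 1022 to 1168 FPKM in duelers and 1103 to 1342 FPKM in workers at day 10. Glial markers summed to 420 to 596 and 363 to 599 FPKM in those day 120 groups, against 706 to 805 and 664 to 974 FPKM in those day 10 groups. Single markers differed in direction. Gs2 fell from 515 to 318 FPKM in the gamergate line, and Gat-1B and moody fell too. The glial markers repo, axo, Gli, drpr and Nrx-IV rose there, with ratios of 1.15 to 1.55. Of the neuron markers VGlut, unc-13, Syn and para rose there and the others fell. The median log2 ratio of glial markers was 0.21 in the gamergate line and -0.01 in workers. For neuron markers it was -0.19 and -0.28. Antennal and chemosensory genes summed to 257 to 328 and 253 to 693 FPKM at day 120, against 557 to 1030 and 808 to 1553 FPKM at day 10. Cuticle genes, which mark other tissue, summed to 0.61 to 4.46 FPKM at day 120, against 32.4 to 9637 FPKM in duelers and 114 to 27100 FPKM in workers at day 10. Fat body genes summed to 3097 to 6372 FPKM in gamergates and 2006 to 4004 FPKM in hunting workers at day 120, against 2096 to 2499 FPKM in duelers and 2456 to 2771 FPKM in workers at day 10. The part of any of these lists in the age ratios was not tested.

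The reference named 14 of the 38 genes by symbol and 24 by a LOC number alone. Of the 38, 34 were protein coding, 2 were long noncoding RNAs, 1 was a pseudogene and 1 was of another RNA class. Named members act in several unrelated processes. DNaseII encodes an acid endonuclease that digests DNA in lysosomes, Bcat the aminotransferase that starts the breakdown of branched-chain amino acids, and Gpat4 an acyltransferase at the entry to glycerolipid synthesis. The gene wls encodes Wntless, the carrier that brings Wnt ligands to the cell surface. Smurf is a ubiquitin ligase that restrains bone morphogenetic protein signalling in Drosophila, Diap2 an inhibitor of apoptosis that also acts in Drosophila immune signalling, and mew a Drosophila integrin alpha chain. FER is a cytoplasmic tyrosine kinase, Tbc1d8-9 carries a domain that switches off Rab GTPases, and BBIP1 belongs to the BBSome, a complex of cilia. BRWD3 is a bromodomain protein, cdc14 a phosphatase known from cell cycle exit in yeast, mh in Drosophila a protease that acts on proteins crosslinked to DNA, and Lop1 a long-wavelength opsin. Other than Lop1 and Bcat, no member stood on any of 24 marker and pathway lists matched by symbol.

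The day 120 over day 10 ratio ran from 1.71 to 8.47 in the gamergate line (median 2.17) and from 1.71 to 12.28 in workers (median 1.90). It was larger in the gamergate line for 21 genes and in workers for 17. All 6 day 120 gamergates were above all 5 duelers for 33 of the 38, where 11.5% of all genes tested were so. All 9 hunting workers were above all 4 day 10 workers for 20 members, against 4.22% of all genes, and both held for 19, against 2.88%. These shares follow from the choice of members and nothing is read from them. Across members, the median coefficient of variation at day 120 was 13.1% in gamergates and 28% in hunting workers.

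**Figure D1:**
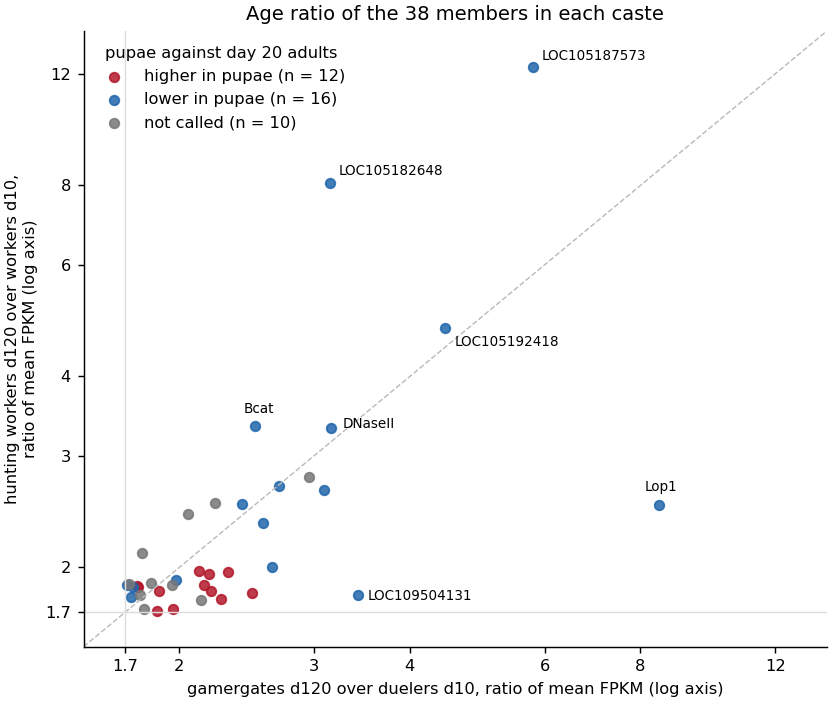
Ratio of mean FPKM at day 120 to day 10 for each of the 38 genes, in the gamergate line (x axis, log scale) and in workers (y axis, log scale), coloured by the test of late pupae against day 20 adults. Grey lines mark the 1.7 that members had to reach, the dashed line marks equal ratios, and Lop1 and LOC105187573 lie farthest out at 8.47 and 12.3.

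DNaseII was at 2.56, 1.48, 1.34, 3.44 and 1.75 FPKM in duelers at day 10, at 2.19, 3.06, 3.88, 3.51 and 3.44 FPKM in gamergates at day 20, and from 5.26 through a median of 6.35 to 8.83 FPKM in gamergates at day 120. In workers it was at 1.53, 0.944, 1.18 and 1.34 FPKM at day 10, at 1.76, 3.69, 2.94 and 3.82 FPKM at day 20, and from 2.05 through 3.69 to 8.77 FPKM in hunting workers at day 120. Day 120 and day 10 libraries did not overlap in either caste, and the highest hunting worker lay within the range of the gamergates while the other hunters lay below it. The mean ratio was 3.16 in the gamergate line (6.67 ± 1.39 FPKM, n = 6, against 2.11 ± 0.88, n = 5, SD) and 3.31 in workers (4.14 ± 1.91, n = 9, against 1.25 ± 0.25, n = 4, SD).

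Bcat had the highest day 120 level of the members, averaging 61.3 ± 15.7 FPKM in gamergates and 66.5 ± 35.6 FPKM in hunting workers (SD). It stood at 27.9, 9.18, 34.3, 18.0 and 32.9 FPKM in duelers at day 10, at 26.4, 48.7, 8.60, 38.6 and 23.5 FPKM in gamergates at day 20, and from 40.5 through 62.6 to 86.3 FPKM in gamergates at day 120. The worker values were 18.7, 12.6, 20.1 and 28.2 FPKM at day 10, 39.7, 42.3, 57.5 and 49.3 FPKM at day 20, and 24.7 through 61.9 to 145 FPKM in hunters at day 120. Workers were thus well above their day 10 level by day 20, gamergates at day 20 overlapped the duelers, and 1 hunting worker lay in the day 10 range. On a log2 scale 71.6% of the worker difference and 19.2% of that in the gamergate line were reached at day 20. Of the 9 amino acid breakdown genes tested, 2 had a ratio of 1.7 or more in both castes, where 3.18% of all tested genes had one. These were Bcat, chosen by this same ratio, and Miox, an oxygenase of inositol breakdown, so nothing is read from the share. Miox was at 0.93 ± 0.22 FPKM in day 120 gamergates and 2.27 ± 3.31 FPKM in hunting workers, against 0.24 ± 0.08 FPKM in duelers and 0.24 ± 0.17 FPKM in day 10 workers (SD), too low to be a member. The highest hunting worker was at 10.95 FPKM. Its day 20 means, 0.193 FPKM in gamergates and 0.208 FPKM in workers, also lay below those of day 10.

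Lop1 had the largest ratio in the gamergate line and the widest spread. It was at 3.41, 7.98, 1.7, 4.65 and 13.9 FPKM in duelers at day 10, at 5.12, 65.1, 57.5, 21.6 and 14.9 FPKM in gamergates at day 20, and at 6.95, 212, 3.14, 44.3, 6.98 and 48.4 FPKM in gamergates at day 120. In workers it was at 6.13, 6.17, 69.1 and 0.207 FPKM at day 10, at 28, 28.9, 69.8 and 7.44 FPKM at day 20, and from 8.36 through 31.3 to 150 FPKM at day 120. Only 3 of 6 gamergates exceeded all duelers and 3 of 9 hunting workers exceeded all day 10 workers, so the libraries of the 2 ages overlapped in both castes, and the rise in its means was not shared by all libraries. The ratio in the gamergate line was 3.46 without day 120 gamergate replicate 2, against 8.47 with it, and the worker ratio of 2.51 was 12.3 without day 10 worker replicate 3. Lop1 encodes a visual pigment of photoreceptors, and the optic lobes had been dissected away. Of 8 tested genes on a list for the retina and optic lobe, 4 had day 120 means at most 1 over 1.7 times those at day 10 in both castes, against 3.89% of all genes, and of the 8 Lop1 alone had a ratio above 1.7 in both. The second opsin of this class, Lop2, was at 14.1 ± 14.9 FPKM in gamergates and 25.0 ± 16.8 FPKM in hunting workers at day 120, against 38.2 ± 20.6 FPKM in duelers and 46.1 ± 28.2 FPKM in workers at day 10 (SD). Arr2, an arrestin that ends the light response, was at 136 ± 174.5 and 250 ± 163 FPKM in those day 120 groups, against 376 ± 217.5 and 550 ± 369 FPKM in those day 10 groups (SD). The summed genes of this list ranged from 23.1 to 745 FPKM in day 120 gamergates and 63.7 to 675 FPKM in hunting workers, against 49.1 to 800 FPKM in duelers and 16.5 to 1071 FPKM in day 10 workers, and their part in the Lop1 values was not tested. Reads from opsins alike in sequence may have been divided in counting.

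LOC112588367 and LOC109504131 also overlapped between ages in both castes. LOC112588367 was at 0.719, 14.8, 5.49, 1.83, 27.4 and 10.6 FPKM in the 6 day 120 gamergates, and LOC109504131 at 0.727, 11, 1.76, 1.78, 12.0 and 9.85 FPKM in the same libraries, against 3.00 to 4.94 and 1.45 to 2.11 FPKM in duelers. Replicates 2, 5 and 6 were the highest and replicate 1 the lowest for both genes. In day 10 workers they were at 0.629, 4.89, 9.34 and 5.50 FPKM and at 0.486, 6.22, 9.43 and 3.92 FPKM. The lowest worker at day 10 and the lowest gamergate at day 20, at 0.444 and 0.404 FPKM, were again the same for both genes. The ratio of LOC112588367 in the gamergate line was 1.7 without gamergate replicate 5, against 2.58 with it.

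LOC105182648 made most of its own change between day 20 and day 120 in both castes. It was at 5.07, 4.01, 2.61, 3.23 and 3.60 FPKM in duelers at day 10, at 4.59, 4.33, 1.34, 6.32 and 5.22 FPKM in gamergates at day 20, and from 5.91 through 10.4 to 21.6 FPKM in gamergates at day 120. In workers it was at 1.81, 2.95, 2.11 and 4.04 FPKM at day 10, at 3.61, 4.25, 2.71 and 5.80 FPKM at day 20, and from 5.46 through 15.9 to 62.3 FPKM in hunters at day 120. Day 120 libraries lay above all day 10 libraries in both castes, with a ratio of 3.14 in the gamergate line and 8.08 in workers, and 14.3% and 19.4% of those log2 rises were reached at day 20. Hunters of run 4 averaged 14.3 FPKM and those of run 1 averaged 31.8 FPKM. LOC105182340, of another RNA class, was at 17.3 ± 3.35 FPKM in gamergates and 19.8 ± 8.46 FPKM in hunting workers at day 120, against 6.54 ± 3.58 FPKM in duelers and 9.91 ± 5.61 FPKM in workers at day 10 (SD). A single day 10 worker, at 17.9 FPKM, was within the range of the hunters, and only 3 of 9 hunters exceeded it. In the gamergate line 5 of 6 gamergates exceeded all duelers, so the 2 ages overlapped in both castes.

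Outside the naming rule, and picked after their values were seen, 3 genes stood out by their steep or late rise. The pseudogene LOC105187573 had the largest ratio in workers, at 3.13 ± 1.06 FPKM in hunting workers against 0.255 ± 0.178 FPKM at day 10 (SD), on 43 to 496 recovered reads per day 120 library and 3 to 20 per day 10 worker library. LOC105192418 had the third largest ratio in workers and was at 8.57 ± 0.90 FPKM in day 120 gamergates and 6.98 ± 2.10 FPKM in hunting workers, against 1.93 ± 0.64 FPKM in duelers and 1.46 ± 0.27 FPKM in day 10 workers (SD). The long noncoding RNA LOC105192293 was nearly level up to day 20, with 1.15 ± 0.23 FPKM in duelers at day 10, 1.26 ± 0.33 FPKM in gamergates at day 20 and 3.39 ± 0.65 FPKM in gamergates at day 120 (SD). Its worker means were 1.09 ± 0.21, 1.32 ± 0.15 and 3.03 ± 0.48 FPKM over the same days.

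**Figure D2:**
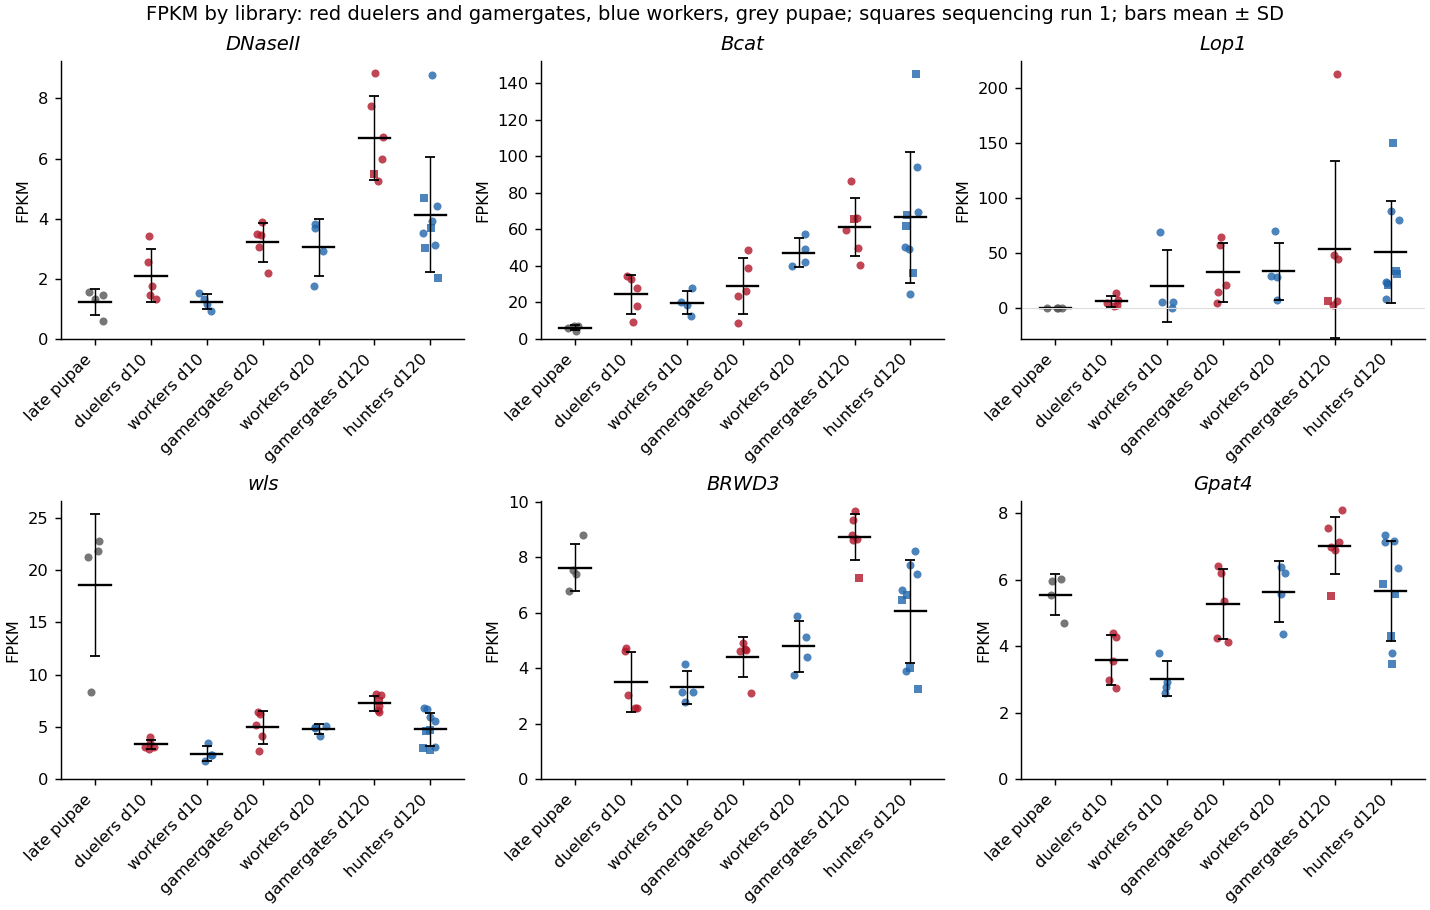
FPKM of 6 named members in each of the 37 libraries, by group in order of age, with the mean and SD of each group in black, duelers and gamergates in red, workers in blue, pupae in grey and sequencing run 1 as squares. Bcat is lowest in pupae, wls is highest in pupae, and Lop1 reaches 212 FPKM in a single day 120 gamergate.

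The share of the change present at day 20 varied widely between genes. By day 20 the median member had covered 46.7% of its log2 rise in the gamergate line (8.93 to 82.0%) and 78.4% in workers (9.72 to 99.5%). More than 50% was reached by 17 members in the gamergate line, by 30 in workers and by 14 in both, and 5 stayed under 50% in both. Among the genes with a symbol, wls was at 4.16, 6.25, 5.14, 6.45 and 2.72 FPKM in day 20 gamergates and at 4.87, 5.02, 4.12 and 5.11 FPKM in day 20 workers. The day 20 workers lay within the range of the hunters at day 120, which ran from 2.77 through 4.69 to 6.81 FPKM, while day 120 gamergates, from 6.43 through 7.20 to 8.16 FPKM, lay above all but 1 of the day 20 gamergates. Hunters 2, 3 and 7 were the lowest for wls, at 3.00, 2.77 and 3.09 FPKM, which lowers the day 120 mean behind the worker share. The rule kept every share within the rise, since day 20 means had to lie between those of day 10 and day 120. Whether the castes differ in the share was not tested. All these shares compare runs 2, 5, 1 and 4, and run and day cannot be told apart.

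Late pupae played no part in the choice of members, so their level was tested against the mean of both day 20 groups. With limma on log2(FPKM + 0.5) and Benjamini-Hochberg adjustment over 9986 genes, 12 members were higher in pupae, where 33.6% of all genes were, 16 were lower, where 34.1% were, and 10 were not called. Together 28 of 38 were called, against 67.7% of all genes, and the difference was above 0 for 18 of 38, against 48.1%, so the members were near the background in both respects. Day 20 values also entered the rule, and pupae and day 20 adults were sequenced in different runs, so that stage and run cannot be told apart. Of the 16 lower genes, 13 had a pupal mean below both day 10 means, as did 84.8% of all genes called lower. Of the 12 higher ones, 8 had a pupal mean above both day 120 means, as did 90.9% of all genes called higher.

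Genes that were lowest in pupae included an unnamed gene with hardly any reads there. LOC105185722 was at 0.0257, 0.715, 0.0542 and 0.0527 FPKM in the 4 pupae, which is 1 to 26 reads, against 25.9 to 70.0 FPKM in the 9 day 20 adults, a log2 difference of -6.04 (SE 0.25, limma adjusted p = 2.12e-19). It went on to 58.1 ± 17.8 FPKM in gamergates and 52.6 ± 10.9 FPKM in hunting workers at day 120 (SD). Lop1 was at 0.293, 0.376, 0.340 and 0.210 FPKM in pupae, below all day 20 adults, with a difference of -4.95 (SE 0.93, limma adjusted p = 2.45e-05). Bcat was at 4.40, 7.23, 6.32 and 6.89 FPKM in pupae, also below all day 20 adults, with a difference of -2.40 (SE 0.36, limma adjusted p = 9.42e-07). DNaseII was at 1.33, 0.607, 1.57 and 1.46 FPKM in pupae, a difference of -1.07 (SE 0.22, limma adjusted p = 0.000111), and pupae overlapped day 10 workers. LOC112588367 was listed at 0 in 3 pupae and had 1 read in the fourth, and LOC109504131 had 0 to 18 reads per pupa, and the difference of LOC109504131, -3.03 (SE 0.77, limma adjusted p = 0.000906), was not called by voom (adjusted p = 0.0999). On the lists that hold Lop1 and Bcat, 5 of 8 retina and optic lobe genes were lower in pupae by limma and 0 were higher, while of 9 amino acid breakdown genes 3 were higher and 2, Bcat among them, lower.

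Of the higher genes with a symbol, the Wnt carrier wls and the integrin gene mew had the largest differences. In the 4 pupae wls was at 21.3, 8.38, 22.8 and 21.8 FPKM, against 2.72 to 6.45 FPKM in day 20 adults, a log2 difference of 1.76 (SE 0.22, limma adjusted p = 2.04e-08). All 4 pupae were above every day 20 adult, although pupal replicate 2 was well below the other 3. The gene mew was at 11.7, 11.4, 12.8 and 12.0 FPKM in pupae against 2.46 to 5.60 FPKM in day 20 adults, a difference of 1.57 (SE 0.18, limma adjusted p = 6.03e-09). For both, pupae were also above the day 120 gamergates, at 7.27 ± 0.72 FPKM for wls and 6.43 ± 1.19 FPKM for mew (SD). The unnamed LOC105190729 had the largest difference, 1.86 (SE 0.28, limma adjusted p = 6.39e-07), at 23.4, 14.8, 27.8 and 22.7 FPKM in pupae against 2.64 to 9.05 FPKM in day 20 adults. BBIP1 was higher by 1.00 (SE 0.32, limma adjusted p = 0.0063) and Smurf by 0.90 (SE 0.18, adjusted p = 6.96e-05). BRWD3 was higher by 0.68 (SE 0.17, limma adjusted p = 0.000851), FER by 0.57 (SE 0.22, adjusted p = 0.0232) and Tbc1d8-9 by 0.54 (SE 0.19, adjusted p = 0.013). The call of FER was lost without pupal replicate 4 (0.53, limma adjusted p = 0.0624) or day 20 worker replicate 3 (0.49, adjusted p = 0.0515), and those of FER and Tbc1d8-9 against day 20 workers alone (0.46 and 0.45, adjusted p = 0.123 and 0.0769). Gpat4, Diap2, mh and cdc14 were not called, with log2 differences of 0.04, 0.11, -0.12 and 0.47.

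**Figure D3:**
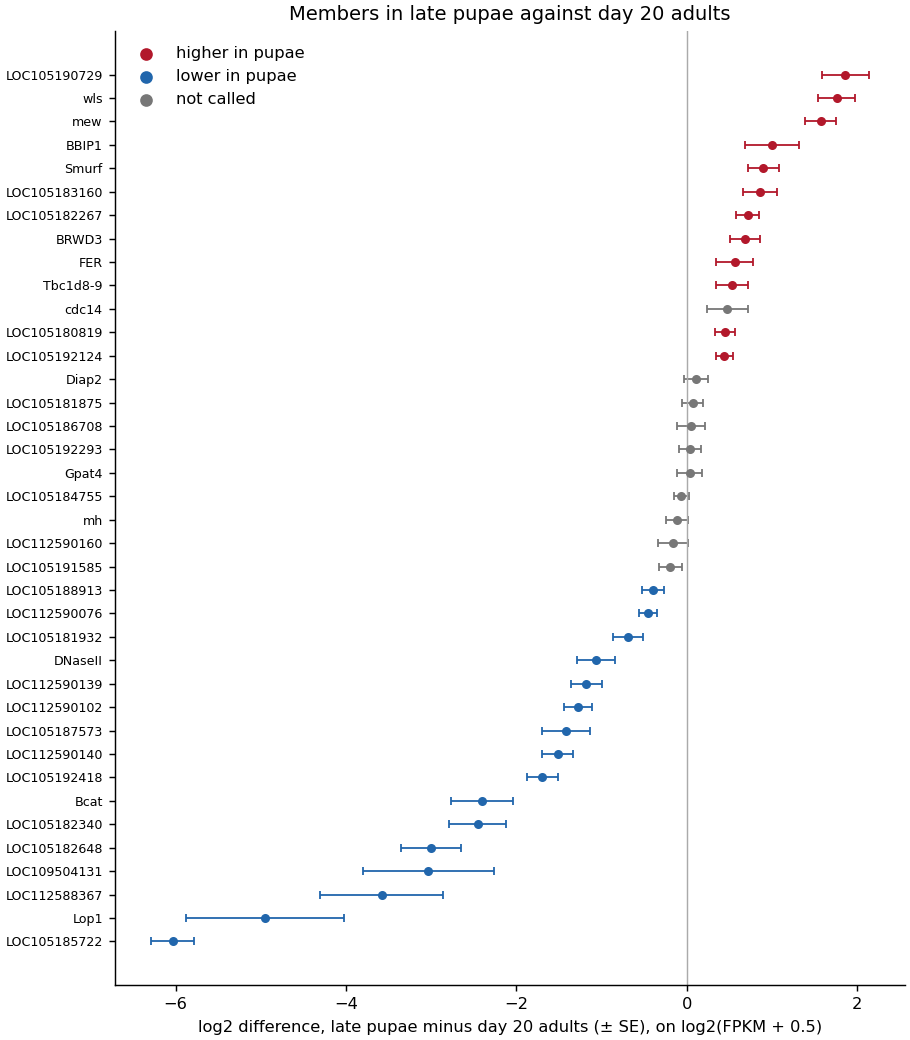
Log2 difference of late pupae minus day 20 adults on log2(FPKM + 0.5) for each of the 38 genes, with its standard error from limma. The values run from -6.04 for LOC105185722 to 1.86 for LOC105190729, with 12 genes called higher, 16 called lower and 10 in grey not called.

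Among adults, most of the 12 genes higher in pupae had their high and low libraries in common. For 10 of the 12, duelers 3 and 5 were the 2 highest of the 5 duelers, and for 10 of the 12 the 3 lowest hunting workers were replicates 2, 3 and 7. BRWD3, for example, was at 4.62 and 4.74 FPKM in those 2 duelers and 2.55 to 3.04 FPKM in the other 3. It was at 4.00, 3.24 and 3.90 FPKM in those 3 hunters and 6.45 to 8.25 FPKM in the other 6. The mean log2 level of the 10 genes not called, relative to adult libraries, had the same low and high libraries. Among hunters it was lowest in 2, 3 and 7 (0.004, -0.21 and -0.07), and among duelers highest in 3 and 5 (-0.35 and -0.21). For the 16 lower genes those 3 hunters were not the lowest (0.79, 0.78 and 0.66). How many of all tested genes had these orders was not counted. In workers the ratio to day 10 differed by run for the 12 genes higher in pupae. With the 4 hunters of run 1 alone it was 1.7 or more for 1 of the 12 genes (median 1.51), and with the 5 hunters of run 4 for all 12 (median 2.04). Among the 16 genes lower in pupae it was at least 1.7 for all 16 with run 1 (median 2.51) and for 14 with run 4 (median 2.42). Among the 10 not called it was so for 6 with run 1 (median 1.76) and for 10 with run 4 (median 2.09). In run 1, hunters 2 and 3 had mean levels of the 12 higher genes of -0.25 and -0.64, and hunters 1 and 4 of 0.21 and 0.26. Hunter 7, at -0.38, was in run 4. Whether the ratio followed run or these single libraries was not tested.

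Gene length went with this pattern in part. The 12 higher genes had a median counted length of 6042 bases, the 16 lower ones 3056 bases and the 10 others 5492 bases, against 4121 bases in all tested genes. Lengths of the 12 ranged from 1116 to 10587 bases. The 2 under 3000 bases, BBIP1 (1116) and LOC105190729 (1390), were likewise highest in duelers 3 and 5 and lowest in hunters 2, 3 and 7. In each library the median log2 departure from the adult mean of tested genes of at least 6000 bases, minus that of genes under 3000 bases, gave the balance of long and short genes. It was 0.37 to 0.65 in pupae, -0.54 to -0.04 in day 20 gamergates and -0.48 to -0.05 in day 20 workers. At day 120 it was 0.19 to 0.43 in gamergates and -0.54 to 0.37 in hunting workers, with hunters 2, 3 and 7 at -0.23, -0.54 and -0.23 and the others above 0. Duelers 3 and 5 stood at 0.53 and 0.28 and the other duelers below 0. In an alternative chosen after seeing the data, with each library's trend on gene length taken out, 9 of the 12 remained higher in pupae. Those lost were BRWD3 (0.17, limma adjusted p = 0.158), FER (0.25, adjusted p = 0.196) and Tbc1d8-9 (0.23, adjusted p = 0.156). The differences of wls (1.76), BBIP1 (1.53) and LOC105190729 (2.25) were as large or larger, and that of mew was 1.14. Of the lower genes 14 of 16 remained called, the others being LOC105188913 and LOC112590076. Newly called lower were Gpat4, whose difference turned to -0.38 (limma adjusted p = 0.00322) where it was 0.04 before, and LOC112590160 (-0.67, adjusted p = 0.00248). In these values 37 genes met the rule, 24 of the 38 members among them, and the part of gene length in the age ratios was not tested further.

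**Figure D4:**
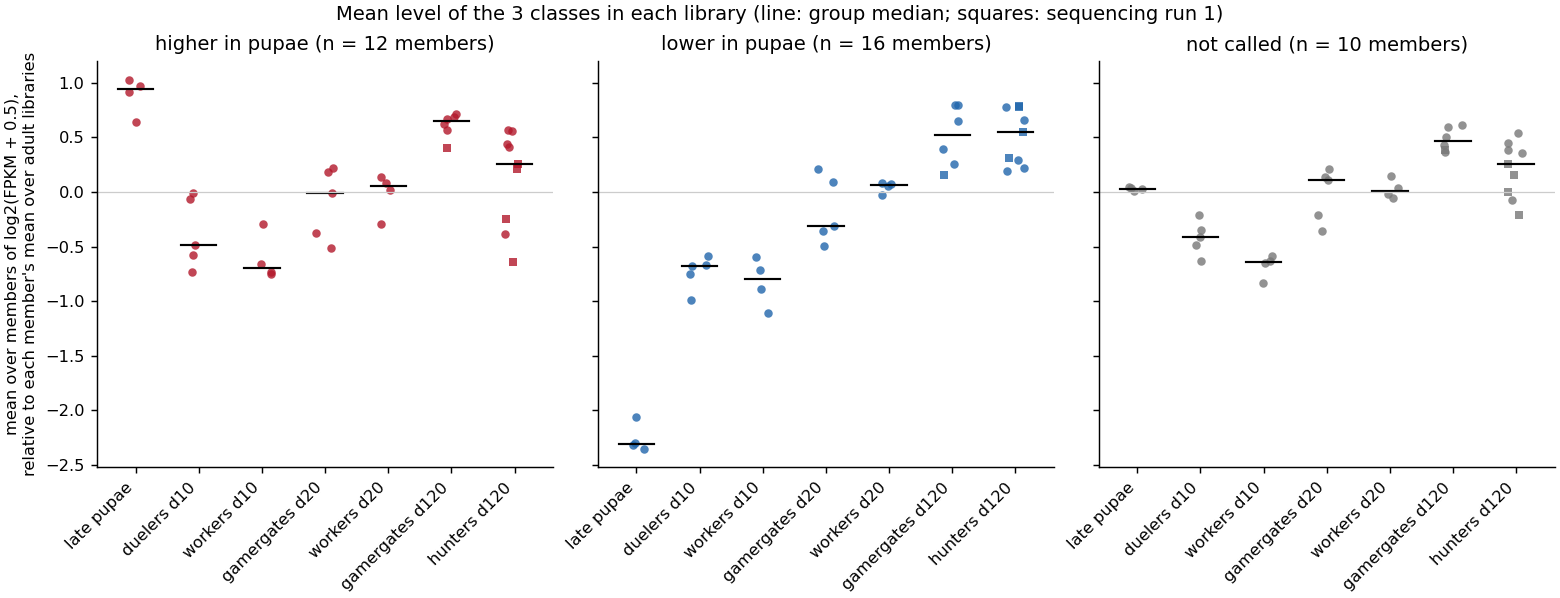
Mean over members of log2(FPKM + 0.5), relative to each member's mean over adult libraries, in each library for the 12 genes higher in pupae, the 16 lower and the 10 not called. Lines are group medians and squares are sequencing run 1, and the median of the lower class is -2.31 in pupae and 0.55 in hunters at day 120, while that of the higher class is 0.94 and 0.26.

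**Figure D5:**
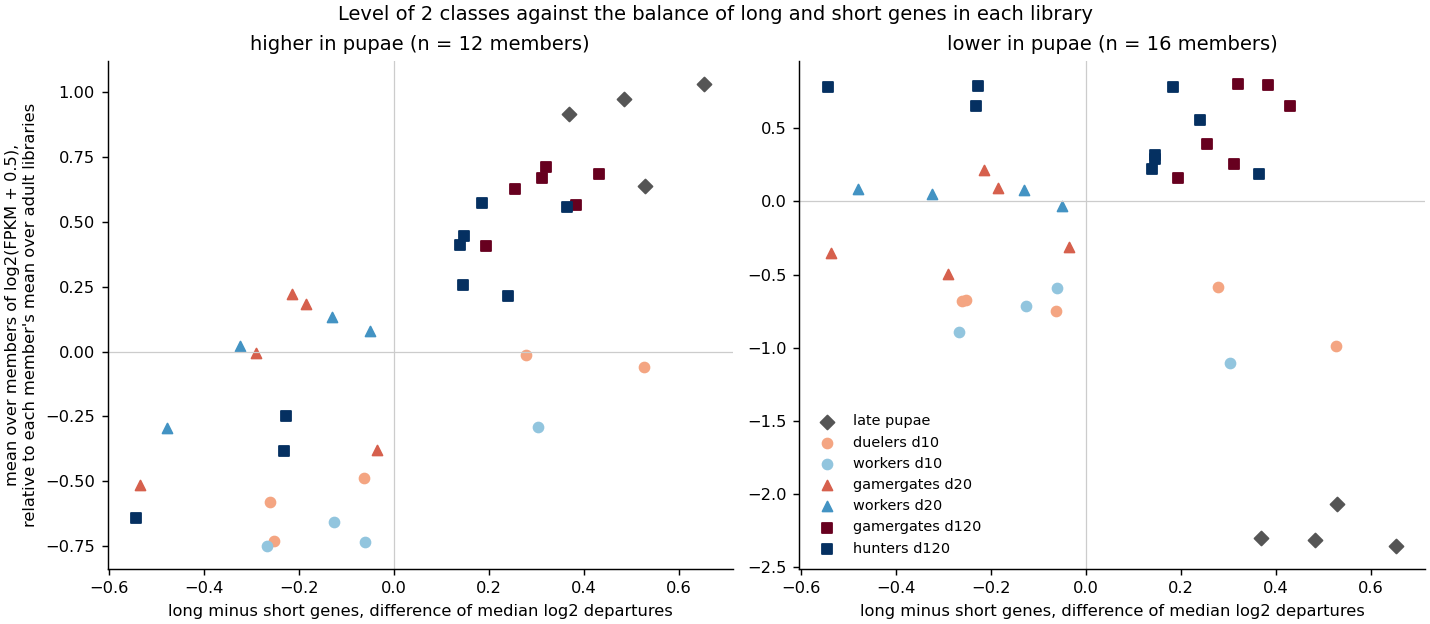
The same mean level of the higher class (left) and the lower class (right) in each library, plotted against the balance of long and short genes in that library as the difference of their median log2 departures. Hunting workers 2, 3 and 7, whose balance lies below 0, have the 3 lowest levels of the higher class among the 9 hunters, while in the lower class the pupae lie apart near -2.31.

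The castes were compared at each day, and no member was called at any of them. The adult values compared here had also entered the choice of members. Its part in the counts of members above 0 or at low p was not tested. At day 120, limma called 0 of 38 members between gamergates and hunting workers, where 0.0601% of all genes were called (0.02% higher and 0.0401% lower), and voom on recovered reads called 0 as well. At unadjusted p under 0.05 there were 11 members, all higher in gamergates, where 14.4% of all genes had such a p. The difference was above 0 for 31 of 38 members, against 48.3% of all genes, with a median of 0.20 among members and -0.01 among all genes. BRWD3 was at 7.25 through 8.74 to 9.66 FPKM in gamergates and 3.24 through 6.66 to 8.25 FPKM in hunting workers, a log2 difference of 0.44 (SE 0.16, limma adjusted p = 0.321). For DNaseII the difference was 0.59 (SE 0.21), for wls 0.51 (SE 0.20) and for Smurf 0.46 (SE 0.17), each with a limma adjusted p of 0.321. All 12 genes higher in pupae had a difference above 0 (median 0.43). So did all 10 not called (median 0.20) and 9 of the 16 lower ones (median 0.10). With the length trend removed, 31 of 38 were above 0 and the difference of BRWD3 was 0.28.

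At day 20, limma and voom called no member between gamergates and workers, against 0.01% of all genes in limma. At unadjusted p under 0.05 there was 1 member, Bcat, with a log2 difference of -0.87 (SE 0.40, limma adjusted p = 1), while 2.15% of all genes had such a p. The difference was above 0 for 9 of 38 members, against 49.0% of all genes. At day 10, limma and voom called no member between duelers and workers, against 0.02% of all genes in limma, and 6 had an unadjusted p under 0.05, all higher in duelers, where 5.48% of all genes had one. The difference was above 0 in 34 of 38, against 48.8% of all genes. The unnamed LOC105186708, chosen after its values were seen, had the lowest p, at 3.64, 3.63, 4.45, 5.00 and 5.78 FPKM in duelers and 2.31, 3.88, 1.96 and 3.91 FPKM in workers (0.54, SE 0.19, limma adjusted p = 0.761). These tests do not show that the castes were alike.

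Day 120 was the one adult age sequenced in 2 runs, so the members were compared between runs at a fixed age. The 2 runs held different libraries, with 1 gamergate in run 1, so run and differences between the libraries cannot be told apart. Day 120 values had also entered the choice of members, and its part in the counts below was not tested. Limma and voom called 0 of 38 between run 4 and run 1, against 0.01% of all genes in limma. With array weights, which give less weight to libraries far from their group, the count was 10, with Diap2 and Gpat4 among them, where 4.76% of all genes were called. At unadjusted p under 0.05 there were 13 members, 12 of them higher in run 4, where 7.81% of all genes had such a p, and 30 of 38 were above 0, against 49.9% of all genes. Diap2 was 0.39 higher in run 4 (SE 0.14) and Gpat4 0.37 higher (SE 0.14), while LOC105182648 was 1.01 lower (SE 0.33), each with a limma adjusted p of 0.597. With run 4 alone the ratio to day 10 was at least 1.7 for 36 members in the gamergate line and 36 in workers, and with run 1 alone for 23 in workers.

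At the 1.7 limit, mew, LOC112590076 and Diap2 were just inside, with a smaller ratio of 1.71, 1.71 and 1.72. LOC105190794, LOC112589095 and Paip2 were just outside, with 1.698, 1.69 and 1.68. Leaving out a library at a time, 30 members kept every ratio at 1.7 or above in the gamergate line and 30 in workers, and the lowest ratio of any member was 1.53 and 1.39.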

How the data were processed

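Strand-specific libraries were made from polyadenylated RNA, per the labels' protocols. A single table that the authors deposited holds FPKM for each gene and library, and the submitters' processing notes name bcl2fastq, STAR and featureCounts. The authors' genome build is not given in the sources used here, and coordinates are therefore left out. Steps of a single read in the low values gave back whole reads for 13444 of 13445 genes above 0, within 0.1 read. The divisor behind the FPKM values was not the library total but lay within 1.19% of a median-of-ratios size factor. Gene symbols were taken from the RefSeq table of Hsal_v8.6, in which 13989 identifiers were found.

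Group means of FPKM gave the members. Tests used limma 3.58.1 in R 4.3.3 (lmFit, eBayes with trend) on log2(FPKM + 0.5), which understates changes of low genes. Genes with FPKM of at least 1 in at least 4 libraries were tested, 9986 in all, in a fit over all 37 libraries with 1 mean per group and, at day 120, a term for run. P-values are two-sided and were adjusted by the Benjamini-Hochberg method over these genes, with 0.05 as threshold. The fit was tested on simulated data. Whether libraries stem from different nests is not labelled, and the p-values reflect the scatter among these libraries alone.

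Members, lists and tests were chosen with earlier results of these data known. The text names members with a symbol, those of highest day 120 level, the largest called differences, list members and genes next to the ratio limit. Alternatives were pseudocounts, filters, scalings, array weights, a replicate block, left-out libraries and, chosen after seeing the data, voom, other day 20 groups and removal of a length trend. Of 31 lists, 7 had no symbol to match. A planned count of promoter motifs was not made, since no sequence was at hand.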

Additional observations from a re-analysis of the deposited data

Results flagged for a closer look

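The 14 members with a symbol, LOC105182648 and LOC105186708 were examined for single libraries far from the rest of their group. Of 112 groups, 9 held such a library. The limits used give about 1 in 20 for independent, normally distributed values. These FPKM values come from the same libraries and need not be so distributed, so nothing is read from the count. Lop1 was at 69.1 FPKM in day 10 worker replicate 3, where the next worker was at 6.17 FPKM, and at 212 FPKM in day 120 gamergate replicate 2, where the next gamergate was at 48.4 FPKM. Hunting workers at day 120 held DNaseII at 8.77 FPKM in replicate 5 (next 4.68 FPKM) and LOC105182648 at 62.3 FPKM in replicate 3 (next 29.1 FPKM). In pupal replicate 2, wls was lowest at 8.38 FPKM (next 21.3 FPKM) and Diap2 highest at 6.65 FPKM (next 5.55 FPKM). BRWD3 was lowest at 3.12 FPKM in day 20 gamergate replicate 1 (next 4.61 FPKM) and cdc14 lowest at 5.25 FPKM in day 20 worker replicate 3 (next 7.76 FPKM). The gene mew was highest at 4.06 FPKM in day 10 worker replicate 1 (next 2.41 FPKM).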

How the results depend on the processing

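The number of genes that met the rule was 38, and 438 on TPM scaling (38 of the members kept), 97 with medians in place of means (30 kept), 76 without run 1 (34 kept) and 21 without run 4 at day 120 (14 kept). It was 36 under quantile normalization (27 kept), and 31 to 52 leaving out a library at a time. No member was called between castes under any alternative run, and the run test gave 10 with array weights, a setting that called 475 of 9986 genes. Pupal counts without a library in turn were 11 to 12 higher and 16 lower. Of 954 alternatives for 37 single results, 940 stayed on their side of the threshold, 12 lost their call, all in the pupal comparison, and 2 gained one, Diap2 (0.35, adjusted p = 0.018) and Gpat4 (0.37, adjusted p = 0.0165) between runs with array weights. None of these changed sign, while the pupal difference of Gpat4, not called, turned to -0.38 without the length trend. On TPM scaling LOC105188913 (-0.28, adjusted p = 0.197) and LOC112590076 (-0.38, adjusted p = 0.0579) lost their call, and TPM scaling moved the median of all genes between duelers and workers at day 10 by 0.26 on the log2 scale. Libraries of equal replicate number had correlations of -0.17 to 0.45, and those of day 20 gamergates with day 20 workers were 0.0993 to 0.45. Libraries of unequal number were not compared, so whether the numbers pair libraries was not settled. The fit with a replicate block called 0 members between castes at each day and 0 between runs, and 12 higher and 16 lower in pupae.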
